A study of Homo sapiens with 82 samples.

Results

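The expression of 35 genes of glycolysis, the pentose phosphate pathway, pyruvate dehydrogenase and the hypoxia response was followed in HT29 cells, a human colorectal adenocarcinoma line, after treatment with agonists of 2 kinds of lipid-sensing nuclear receptor. The genes were taken by symbol from the 51838 rows of the gene count tables, and all 35 had a row. They comprised 9 genes of upper glycolysis (HK1, HK2, GPI, PFKL, PFKM, PFKP, ALDOA, ALDOC and TPI1), 7 of lower glycolysis and lactate formation (GAPDH, PGK1, PGAM1, ENO1, ENO2, LDHA and LDHB), the 4 PFKFB genes, 5 pyruvate dehydrogenase genes (PDHA1, PDHB, DLAT, DLD and PDHX), 7 hypoxia-inducible genes (CA9, VEGFA, BNIP3, NDRG1, ADM, EGLN3 and P4HA1) and 3 pentose phosphate genes (PGD, TALDO1 and TKT). PFKFB1 was close to absent, with 0 to 13 counts per library, and was not tested, which left 34 genes in each comparison.

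Glycolysis splits glucose into pyruvate, which is either reduced to lactate or passed to mitochondria through the pyruvate dehydrogenase complex, while the pentose phosphate pathway draws off glucose 6-phosphate to make NADPH and ribose. Many glycolytic genes are also targets of hypoxia-inducible factor (HIF), which binds a short DNA element around the core letters ACGTG or GCGTG when oxygen is low. Colorectal cancer cells are known for a high rate of glycolysis also in the presence of oxygen. Liver X receptors (LXR) respond to oxysterols and switch on sterol efflux and fatty acid synthesis, and PPARG responds to fatty acids and switches on lipid storage and oxidation.

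The cells were given DMSO as vehicle, the LXR agonist GW3965, the LXR agonist T0901317 or the PPARG agonist rosiglitazone, each drug at 10 µM, for 24 or 48 h. All 8 groups shared a culture medium without phenol red, with serum treated with charcoal and dextran, and a separate DMSO group was kept for either time. Every group held 4 RNA-seq libraries, 32 in all, from the 82 samples of the series. The labels do not say whether the replicates were separate cultures, so p-values measure the spread between these libraries, which may be technical.

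Library totals ran from 21044798 to 51332656 counts at 24 h and from 32312041 to 50938082 at 48 h. The scaling factors by trimmed mean of M values (TMM, a correction for a few genes that take up much of a library) ran from 0.949 to 1.054 at 24 h and from 0.872 to 1.104 at 48 h, and the 4 rosiglitazone libraries of 48 h had the lowest, 0.872 to 0.940. All 10 colon epithelial markers were present, among them EPCAM at 241 to 365 CPM per library (CPM are counts scaled to a common library total), and their summed level ran from 15582 to 20800 CPM over the groups. Of 6 markers of other cell types, PTPRC, CD3E, COL1A2, ALB and ADIPOQ stayed at or below 6 counts in every library, and the 6 together summed to between 3.05 and 8.14 CPM, nearly all from COL1A1. The LXR target gene ABCG1 stood at 6.97 ± 0.635 CPM in DMSO and 178 ± 12.9 with GW3965 and 141 ± 10.7 with T0901317 at 24 h (SD, n = 4), and the PPARG target PDK4 went from 4.66 ± 0.298 in DMSO to 27.97 ± 2.44 CPM with rosiglitazone.

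Between drug and DMSO at the same time, few of the carbohydrate and hypoxia genes were called with the LXR agonists at 24 h, more were called with rosiglitazone at that time, and 15 to 21 of the 34 were called with each drug at 48 h. A gene was called at an adjusted p under 0.01, by the quasi-likelihood test of edgeR over the 16 libraries of the time point with Benjamini-Hochberg adjustment over all 21781 genes tested at 24 h or 22470 at 48 h. With GW3965 at 24 h, 3 genes were higher (VEGFA, NDRG1 and PGD) and 0 lower, against 1.86% of all genes tested called higher and 0.868% called lower. At an unadjusted p under 0.05, edgeR put 13 higher and 1 lower, and DESeq2 at its adjusted p also called 3 and 0. T0901317 at 24 h raised VEGFA and PGD and lowered none, with 1.33% of all genes called higher and 0.119% lower, and here 4 were higher and 2 lower at an unadjusted p under 0.05 by edgeR while DESeq2 called 2 and 0. No share of all genes is given at an unadjusted p under 0.05. The counts at that level, with either agonist, have no background beside them. With rosiglitazone at 24 h, 6 were higher (HK2, PFKP, ALDOA, PGAM1, ENO1 and PDHA1) and 5 lower (ALDOC, ENO2, PFKFB4, CA9 and EGLN3), beside 5.81% and 6.52% of all genes. Of all genes averaging at least 5 on the log2 CPM scale, 13.6% were higher and 6.53% lower with rosiglitazone at 24 h. Of the 25 carbohydrate and hypoxia genes at that level, 24% and 4% were. With library size in place of TMM scaling the 6 and 5 became 2 and 5, and leaving out single libraries gave 6 to 10 calls, with 6 without DMSO replicate 2 or rosiglitazone replicate 2 and 7 without DMSO replicate 4 or rosiglitazone replicate 1 or 4.

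At 48 h, GW3965 raised 19 of the 34 genes and lowered 2, where 16.1% of all genes were called higher and 17.5% lower. T0901317 raised 14 and lowered 3, against 14% and 16.1% of all genes, and rosiglitazone raised 11 and lowered 4, against 12.3% and 13.1%. Most of the 34 genes are well expressed, and small changes of such genes are called more often. Among all genes of an average of at least 5 on the log2 CPM scale, 25.4% were higher with GW3965 at 48 h, 18.8% with T0901317 and 27.7% with rosiglitazone, and of the 25 carbohydrate and hypoxia genes at that level 56.0%, 40.0% and 44.0% were. With library size in place of TMM scaling, the median of all genes moved to a log2 value of -0.19 in the rosiglitazone comparison at 48 h, and the split of 11 higher and 4 lower became 7 and 7.

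Changes of at least 1.5-fold were fewer. They numbered 1 of 34 with GW3965 at 24 h (1.34% of all genes), 1 with T0901317 (0.721%) and 3 under rosiglitazone (4.94%). At 48 h they numbered 9 with GW3965 (16.1% of all genes), 8 with T0901317 (14.3%) and 6 under rosiglitazone (12.2%). The 12 genes that reached 1.5-fold in any of the 6 drug comparisons were HK2, PFKP, ALDOA, ALDOC, ENO2, PFKFB4, CA9, VEGFA, NDRG1, ADM, EGLN3 and PGD.

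**Figure D1:**
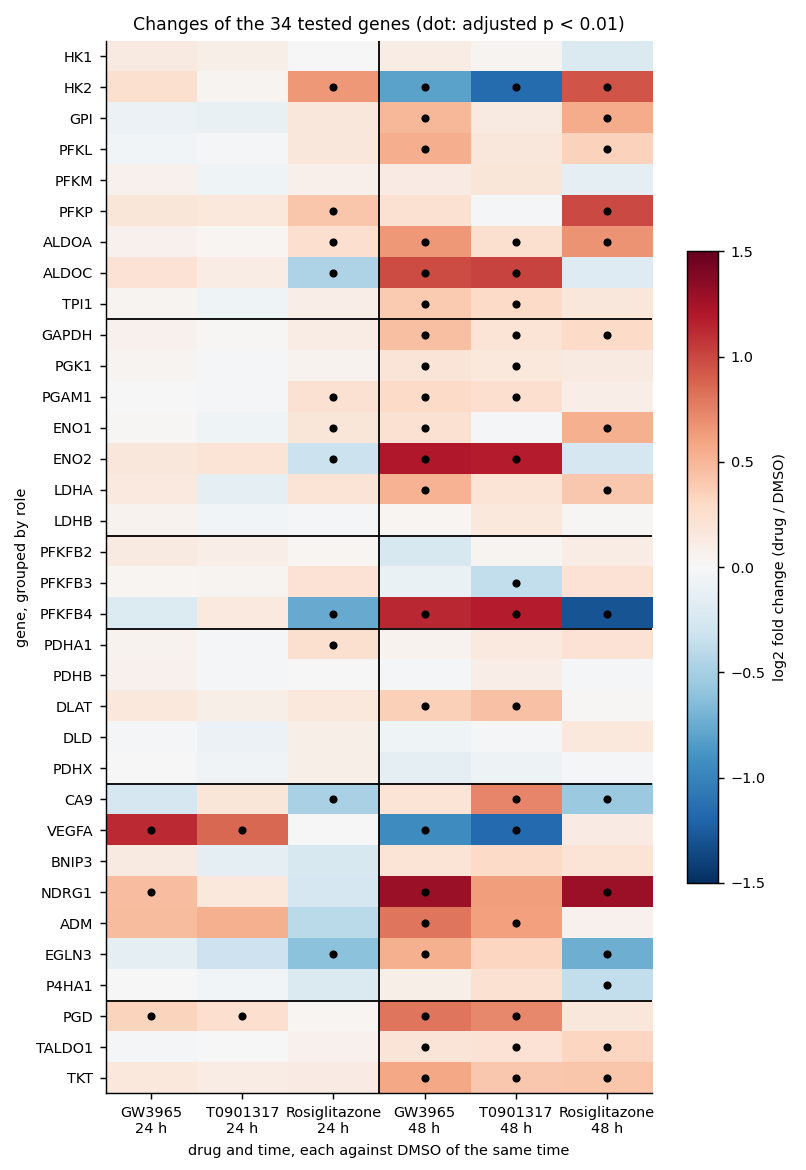
Log2 fold change of each of the 34 tested genes (rows, grouped by role and parted by lines) in the 6 comparisons of a drug with DMSO of the same time (columns), in red where higher with the drug and in blue where lower; a black dot marks an adjusted p under 0.01. The 24 h columns of GW3965 and T0901317 hold 3 and 2 dots, and those of 48 h hold 21 and 17; the colour scale ends at a log2 value of 1.5.

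The DNA just before the transcript start is printed for PFKFB4, HK2, ENO2, EGLN3 and ALDOC, the 5 genes with the largest differences between rosiglitazone and GW3965 at 48 h, so that any match to the HIF core letters can be seen beside their values. They were chosen after their values were seen. Each sequence is the 250 bases before a RefSeq transcript start (GRCh38.p14), 5′ to 3′ on the gene's strand, with matches to the HIF core letters ACGTG or GCGTG, on either strand, in capitals. HK2 has 2 starts in the table, of which the first is shown, and the other 4 genes have 1.
PFKFB4, chr3:48556804-48557053, minus strand: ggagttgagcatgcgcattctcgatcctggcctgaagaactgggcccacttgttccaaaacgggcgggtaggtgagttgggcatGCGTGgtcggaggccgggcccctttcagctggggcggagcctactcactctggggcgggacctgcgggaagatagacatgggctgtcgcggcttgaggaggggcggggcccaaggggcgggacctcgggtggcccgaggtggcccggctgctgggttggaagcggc
HK2, chr2:74833877-74834126, plus strand: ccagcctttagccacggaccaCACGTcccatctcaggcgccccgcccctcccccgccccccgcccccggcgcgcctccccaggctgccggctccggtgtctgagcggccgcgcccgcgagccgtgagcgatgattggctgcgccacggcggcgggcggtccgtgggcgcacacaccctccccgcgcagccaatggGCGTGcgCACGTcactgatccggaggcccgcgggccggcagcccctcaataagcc
ENO2, chr12:6914330-6914579, plus strand: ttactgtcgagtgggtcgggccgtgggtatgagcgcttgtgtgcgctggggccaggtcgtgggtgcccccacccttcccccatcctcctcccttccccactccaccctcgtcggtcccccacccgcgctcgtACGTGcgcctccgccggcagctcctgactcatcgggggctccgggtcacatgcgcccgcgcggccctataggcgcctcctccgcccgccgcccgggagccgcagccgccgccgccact
EGLN3, chr14:33951075-33951324, minus strand: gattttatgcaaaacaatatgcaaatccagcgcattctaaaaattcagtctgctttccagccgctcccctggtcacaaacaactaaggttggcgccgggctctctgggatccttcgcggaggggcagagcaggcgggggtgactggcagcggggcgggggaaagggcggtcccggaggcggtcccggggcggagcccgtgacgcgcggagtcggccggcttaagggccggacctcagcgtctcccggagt
ALDOC, chr17:28576896-28577145, minus strand: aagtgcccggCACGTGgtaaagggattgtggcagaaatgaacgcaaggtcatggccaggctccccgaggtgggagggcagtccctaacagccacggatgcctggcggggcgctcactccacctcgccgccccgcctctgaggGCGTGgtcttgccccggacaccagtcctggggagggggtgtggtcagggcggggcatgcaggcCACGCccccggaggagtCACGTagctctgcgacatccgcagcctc

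Of the 35 genes, 32 had a start in that table, with 56 starts between them, and all 27305 genes in it had 35116. PFKFB2, VEGFA and NDRG1 had none. A gene was counted if a match lay before any of its starts, so more starts give more chances of a match. ACGTG was found before a start of 19 of the 32 (59.4%) and of 21.7% of all 27305 genes with a start, and GCGTG before a start of 19 of the 32 (59.4%) and 36.2% of all genes. The palindrome CACGTG, which holds ACGTG on both strands and is also the E-box letters bound by MYC and USF, was found for 8 of the 32 (25%) and for 7.73% of all genes. These are matches of letters and not sites shown to be bound. The core letters hold CG, and the printed windows are 64% to 76.8% G or C. No share among starts of like base content or expression is given, so an excess of HIF elements was not tested. Of the 5 printed windows, those of HK2 and ALDOC hold several matches, those of PFKFB4 and ENO2 hold 1, and that of EGLN3 holds none.

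The base line moved between the time points. In DMSO cells 21 of the 34 genes were lower at 48 h than at 24 h and 4 were higher, whereas 18.9% of all 23140 genes tested over both times were lower and 19.7% higher. Of all genes averaging at least 5 on the log2 CPM scale, 32.3% were lower and 28.5% higher. Of the 26 carbohydrate and hypoxia genes at that level, 69.2% and 11.5% were. All 7 genes of lower glycolysis and lactate formation fell, as did 6 of 9 of upper glycolysis and all 3 of the pentose phosphate pathway. LDHA, the lactate dehydrogenase subunit that favours lactate formation, went from 777 ± 21.5 to 327 ± 15.9 CPM (SD, n = 4), a log2 change of -1.25 ± 0.07 (SE, adjusted p = 1.1e-16). ENO1, the main enolase, went from 2076 ± 63.2 to 1213 ± 31.3 CPM, a log2 change of -0.77 ± 0.05 (SE, adjusted p = 2.5e-15). The 4 genes that rose were HK2, PFKFB2, NDRG1 and VEGFA. Below, a gene said to rise or fall with a drug did so against DMSO of the same time. A rise at 48 h can thus go with a lower level than at 24 h.

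VEGFA, which encodes the angiogenic growth factor, stood at 145, 158, 142 and 149 CPM in the 4 DMSO libraries of 24 h and at 1189, 1073, 1166 and 1130.3 CPM in those of 48 h. It was 7.67-fold higher at 48 h, a log2 change of 2.94 ± 0.08 (SE, adjusted p = 2.7e-23). NDRG1, a stress-responsive gene induced by hypoxia and by differentiation, went from 10.6, 12.7, 13.7 and 11.8 to 29.2, 28.8, 29.6 and 29.7 CPM, a log2 change of 1.26 ± 0.19 (SE, adjusted p = 9.1e-07), again with no overlap. Time in culture and any difference in the handling of both sets of libraries cannot be told apart in this comparison, and in whole-culture RNA fewer cells of a kind and less RNA per cell cannot be told apart in any.

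**Figure D2:**
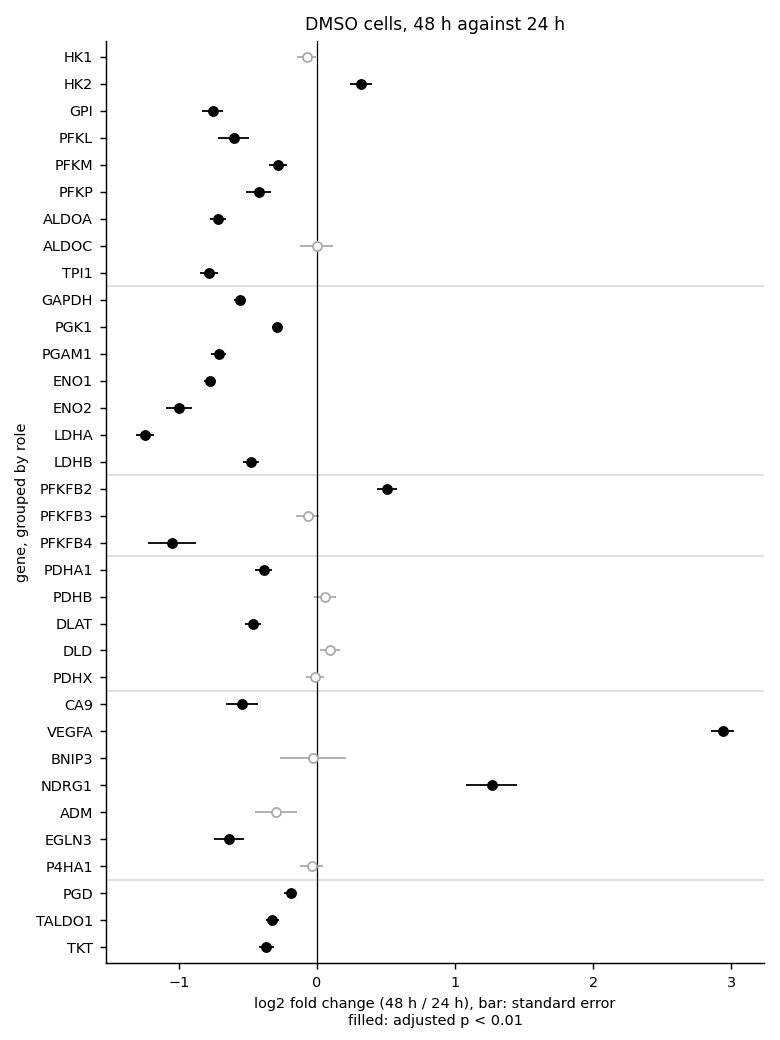
Log2 fold change between the DMSO cells of 48 h and those of 24 h for the 34 tested genes (4 libraries each), with the standard error as a bar; filled points have an adjusted p under 0.01 and lines part the roles. The genes of glycolysis and the pentose phosphate pathway lie mostly left of 0, and VEGFA (2.94) and NDRG1 (1.26) lie farthest right.

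Hexokinase 2, the inducible enzyme that traps glucose in the cell as glucose 6-phosphate, moved in opposite directions with the LXR agonists and with rosiglitazone at 48 h. HK2 stood at 57.7, 58.2, 60.7 and 57.7 CPM in DMSO at 48 h. With GW3965 it stood at 32.99, 32.7, 33.2 and 35.9 CPM and with T0901317 at 26.1, 25.8, 24.3 and 28.6 CPM. All 8 LXR agonist libraries lay below all 4 DMSO libraries, with log2 changes of -0.80 ± 0.08 (SE, adjusted p = 1.6e-07) and -1.16 ± 0.08 (SE, adjusted p = 1.6e-09). Rosiglitazone gave 96.7, 112, 136 and 114 CPM, every library above DMSO, a log2 change of 0.95 ± 0.08 (SE, adjusted p = 2.4e-08). At 24 h rosiglitazone had already raised it, from 53.5, 45.7, 41.3 and 47.3 to 76.8, 70.7, 77.5 and 71.3 CPM, a log2 change of 0.65 ± 0.08 (SE, adjusted p = 5.9e-06). The LXR agonist libraries of 24 h ran from 48.6 to 59.5 CPM with GW3965 and 45.3 to 53.5 with T0901317 and overlapped DMSO, with log2 values of 0.24 (adjusted p = 0.11) and 0.05 (adjusted p = 0.9). HK1, the constitutive hexokinase, was not called with any drug, with group means from 119.9 to 159.8 CPM.

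Phosphofructokinase commits fructose 6-phosphate to glycolysis, and its 3 subunit genes differed in response. PFKP, the platelet-type subunit, rose with rosiglitazone and was not called with either LXR agonist. It stood at 184, 174, 168 and 183 CPM in DMSO and 300.1, 343, 429 and 352 CPM with rosiglitazone at 48 h, a log2 change of 0.99 ± 0.09 (SE, adjusted p = 5.0e-08), with no overlap. At 24 h it stood at 257, 238, 199.98 and 254 CPM in DMSO and at 336, 295, 327 and 317 CPM with rosiglitazone, again apart, a log2 change of 0.42 ± 0.08 (SE, adjusted p = 0.0012). With GW3965 and T0901317 at 48 h it stood at 194, 215, 207 and 214 and at 201, 165, 162 and 174 CPM, with log2 values of 0.22 (adjusted p = 0.043) and -0.01 (adjusted p = 0.92).

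PFKL, the liver-type subunit, rose with GW3965 at 48 h, from 236 ± 15.1 to 345 ± 12.2 CPM (SD, n = 4), a log2 change of 0.54 ± 0.09 (SE, adjusted p = 5.7e-05). The rosiglitazone value at 48 h was 0.34 ± 0.09 (SE, adjusted p = 0.0054), and that call was lost without DMSO replicate 3 or 4 or rosiglitazone replicate 1 or 2 (0.28 to 0.36, adjusted p = 0.01003 to 0.026) and with library size scaling at 0.16 (adjusted p = 0.13). PFKM, the muscle-type subunit, was not called with any drug. GPI, which makes the fructose 6-phosphate, rose at 48 h with GW3965 by 0.50 ± 0.08 (SE, adjusted p = 4.2e-05) and with rosiglitazone by 0.56 ± 0.08 (SE, adjusted p = 1.9e-05) on the log2 scale, from 636 ± 44.7 CPM to 901 ± 31.5 and 949 ± 119.7 CPM. For T0901317 its log2 value was 0.14 (adjusted p = 0.18).

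The aldolases split fructose 1,6-bisphosphate. ALDOA, the main form, stood at 942, 935, 839 and 921 CPM in DMSO at 48 h, 1409, 1502, 1392 and 1436 with GW3965, 1187, 1055, 1031 and 1033 with T0901317 and 1517, 1505, 1450.4 and 1388 under rosiglitazone. Every treated library was above every DMSO library, and the log2 changes were 0.65 ± 0.06 (SE, adjusted p = 2.8e-08), 0.24 ± 0.06 (SE, adjusted p = 0.0019) and 0.67 ± 0.06 (SE, adjusted p = 3.2e-08). The T0901317 call was lost without DMSO replicate 3 or T0901317 replicate 1 (0.19 to 0.20, adjusted p = 0.01043 to 0.013). No library of the 3 drug groups lay above the highest DMSO library of 24 h, where DMSO gave 1537, 1545, 1359 and 1531 CPM. At 24 h rosiglitazone gave 1804, 1779.8, 1809.9 and 1763 CPM, a log2 change of 0.26 ± 0.06 (SE, adjusted p = 0.0071) whose call was lost without DMSO replicate 2, 3 or 4 or rosiglitazone replicate 1, 2, 3 or 4 (0.22 to 0.27, adjusted p = 0.012 to 0.023).

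ALDOC, the form best known from brain, followed another course. It stood at 9.61, 11.5, 9.06 and 10.5 CPM in DMSO at 48 h, at 16.8, 24.2, 19.5 and 19.7 with GW3965 and at 22.5, 20.96, 19.7 and 18.9 with T0901317. The groups were apart and the level rose with either LXR agonist, with log2 changes of 0.98 ± 0.12 (SE, adjusted p = 3.0e-06) and 1.02 ± 0.12 (SE, adjusted p = 2.0e-06). Rosiglitazone at 48 h gave 10.04, 11.02, 7.16 and 7.85 CPM, which overlapped DMSO, with a log2 value of -0.19 ± 0.13 (SE, adjusted p = 0.28). At 24 h it gave 7.13, 7.85, 8.12 and 6.41 CPM against 10.4, 10.4, 9.93 and 9.82 in DMSO, all lower, a log2 change of -0.47 ± 0.10 (SE, adjusted p = 0.0022), lost as a call without rosiglitazone replicate 4 (-0.41, adjusted p = 0.011). TPI1, triose phosphate isomerase, rose at 48 h with GW3965 (0.39) and T0901317 (0.28), and the T0901317 call was lost without T0901317 replicate 3 (0.22, adjusted p = 0.011). Rows of TPI1 pseudogenes held 13.0% of the reads of TPI1 and its copies together, so its level is uncertain by how reads were shared out.

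In lower glycolysis 6 of 7 genes rose with GW3965 at 48 h, 4 with T0901317 and 3 under rosiglitazone. Of all genes 16.1%, 14% and 12.3% were called higher. Of all genes averaging at least 5 on the log2 CPM scale, 25.4%, 18.8% and 27.7% were. GAPDH, which makes NADH and 1,3-bisphosphoglycerate, went from 7682 ± 324 CPM to 10572 ± 214 with GW3965, 8873 ± 359 with T0901317 and 9473 ± 295 under rosiglitazone (SD, n = 4). The log2 changes were 0.46 ± 0.05 (SE, adjusted p = 3.0e-07), 0.21 ± 0.05 (SE, adjusted p = 0.0018) and 0.28 ± 0.05 (SE, adjusted p = 1.3e-04). Without DMSO replicate 3 the T0901317 call was lost at 0.17 (adjusted p = 0.011), and with library size scaling the rosiglitazone call was lost at 0.10 (adjusted p = 0.091). GAPDH is widely used as a reference gene, and its level in DMSO itself differed between the times, by -0.56 ± 0.04 (SE, adjusted p = 2.8e-12) on the log2 scale.

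PGK1, the first ATP-yielding enzyme, rose by 0.19 with GW3965 and 0.16 with T0901317 at 48 h. Leaving out any 1 of the 8 libraries ended the T0901317 call (adjusted p = 0.011 to 0.039), and library size scaling ended the GW3965 call at 0.15 (adjusted p = 0.024). PGAM1, phosphoglycerate mutase, rose at 48 h by 0.28 and 0.26 with the LXR agonists, and by 0.23 with rosiglitazone at 24 h, a call lost without DMSO replicate 2, 3 or 4 or rosiglitazone replicate 1, 2 or 4 (0.20 to 0.23, adjusted p = 0.013 to 0.019). LDHA rose with GW3965, 0.52 ± 0.07 (SE, adjusted p = 9.0e-06), and with rosiglitazone, 0.40 ± 0.07 (SE, adjusted p = 2.2e-04), at 48 h, and with library size scaling the rosiglitazone value was 0.22 (adjusted p = 0.032). In the GW3965 libraries LDHA ran from 807 to 949 CPM at 24 h and from 441 to 496 CPM at 48 h, so it was lower at the later time. LDHB, the subunit that favours pyruvate, was not called with any drug.

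The enolases convert 2-phosphoglycerate to phosphoenolpyruvate, and the 2 genes parted by drug. ENO2, the neuronal form, stood at 15.1, 11.4, 10.7 and 11.6 CPM in DMSO at 48 h, at 27.7, 29.9, 25.7 and 29.4 with GW3965 and at 30.8, 28.5, 24.6 and 25.9 with T0901317. All 8 LXR agonist libraries were above all DMSO libraries and ran from 25.7 to 29.9 CPM with GW3965 and 24.6 to 30.8 with T0901317, beside 26.5, 25.02, 21.4 and 24.7 CPM in DMSO at 24 h. The log2 changes at 48 h were 1.20 ± 0.10 (SE, adjusted p = 1.5e-08) and 1.17 ± 0.10 (SE, adjusted p = 2.2e-08). With rosiglitazone ENO2 stood at 9.96, 11.9, 9.72 and 10.04 CPM at 48 h, a log2 value of -0.25 ± 0.11 (SE, adjusted p = 0.073) with overlap. At 24 h rosiglitazone gave 20.3, 17.8, 19.1 and 21.3 CPM, a log2 change of -0.32 ± 0.08 (SE, adjusted p = 0.0059), lost as a call without DMSO replicate 1, 2 or 4 or rosiglitazone replicate 1, 2 or 3 (-0.33 to -0.27, adjusted p = 0.012 to 0.03).

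ENO1 rose most with rosiglitazone at 48 h, from 1213 ± 31.3 to 1782 ± 83.7 CPM (SD, n = 4), a log2 change of 0.53 ± 0.05 (SE, adjusted p = 2.1e-07). With GW3965 its log2 change was 0.23 ± 0.05 (SE, adjusted p = 0.0015) and with T0901317 the value was -0.01 (adjusted p = 0.85). The 24 h call with rosiglitazone, 0.19, was lost without DMSO replicate 2, 3 or 4 or rosiglitazone replicate 1, 2 or 4 (0.17 to 0.20, adjusted p = 0.011 to 0.023).

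The PFKFB enzymes set the level of fructose 2,6-bisphosphate, the strongest activator of phosphofructokinase, and PFKFB4 gave the widest contrast between the drugs. It stood at 2.53, 2.63, 2.34 and 2.94 CPM in DMSO at 48 h. With GW3965 it stood at 5.14, 6.18, 5.53 and 6.12 CPM and with T0901317 at 7.14, 6.06, 4.66 and 5.78 CPM, every library above DMSO, with log2 changes of 1.13 ± 0.21 (SE, adjusted p = 1.7e-04) and 1.18 ± 0.21 (SE, adjusted p = 1.2e-04). Rosiglitazone gave 1.80, 1.23, 0.490 and 0.753 CPM, every library below DMSO, a log2 change of -1.29 ± 0.25 (SE, adjusted p = 3.9e-04). The rosiglitazone values spread widely within the group, and without replicate 3, the lowest, the log2 change was -1.04 (adjusted p = 8.6e-04).

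At 24 h PFKFB4 stood at 5.25, 5.46, 5.84 and 4.99 CPM in DMSO and at 2.78, 2.91, 3.25 and 3.94 with rosiglitazone, apart, a log2 change of -0.75 ± 0.11 (SE, adjusted p = 4.3e-05). The LXR agonist values of 24 h were -0.21 (adjusted p = 0.36) and 0.14 (adjusted p = 0.67). PFKFB3, the form usually linked to proliferation, fell with T0901317 at 48 h, from 32.9 ± 1.85 to 25.4 ± 2.65 CPM (SD, n = 4), a log2 change of -0.37 ± 0.08 (SE, adjusted p = 9.0e-04), and PFKFB2, the form best known from heart, was not called with any drug.

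The pyruvate dehydrogenase complex showed little. DLAT, its acetyltransferase core, rose at 48 h with GW3965, 0.36 ± 0.06 (SE, adjusted p = 5.0e-05), and T0901317, 0.44 ± 0.06 (SE, adjusted p = 4.6e-06), from 54.7 ± 2.57 CPM to 70.3 ± 3.98 and 74.4 ± 3.55 CPM (SD, n = 4). PDHA1, the catalytic alpha subunit, was called with rosiglitazone at 24 h, 0.23 ± 0.05 (SE, adjusted p = 0.0026), and that call was lost without DMSO replicate 2 or rosiglitazone replicate 2 (0.22, adjusted p = 0.011 to 0.012) and with library size scaling at 0.14 (adjusted p = 0.13). PDHB, DLD and PDHX were not called in any drug comparison. Their log2 values ran from -0.14 for PDHX with GW3965 to 0.16 for DLD with rosiglitazone, both at 48 h.

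**Figure D3:**
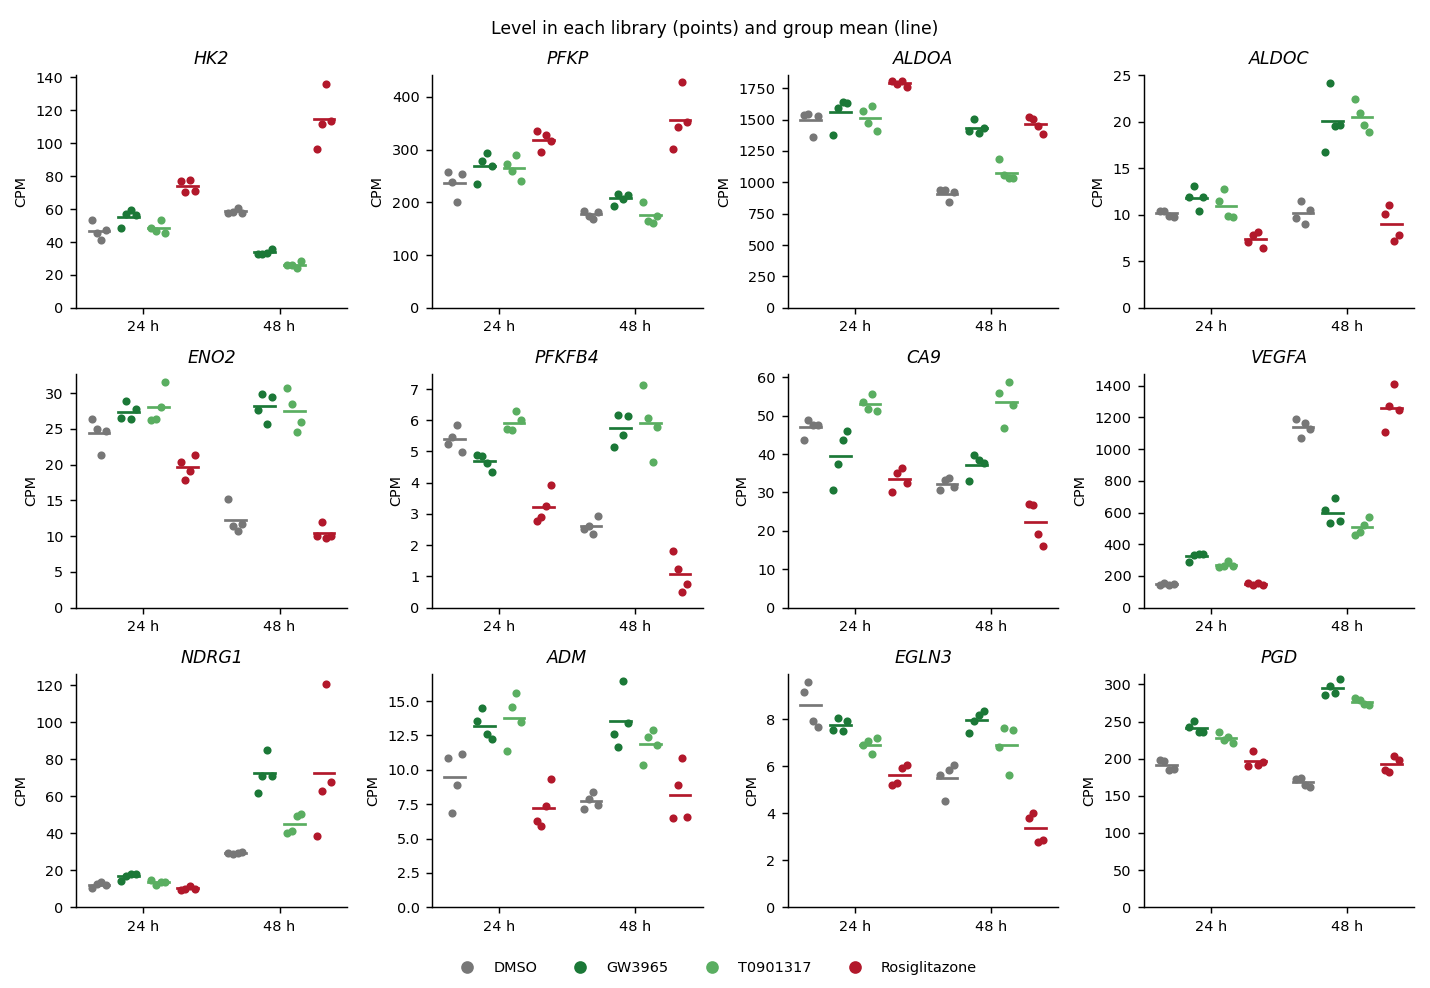
Level in CPM (TMM-scaled, linear axis from 0) of the 12 genes that changed at least 1.5-fold in a drug comparison, with a point for each of the 4 libraries of a group and a line at the group mean, at 24 h (left) and 48 h (right). At 48 h the rosiglitazone points of HK2 and PFKP lie above all others, those of PFKFB4 and EGLN3 lie below all others, and the points of ALDOC and ENO2 with both LXR agonists lie above DMSO.

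The hypoxia-inducible genes did not move as a block. VEGFA rose with both LXR agonists at 24 h and fell with both at 48 h. It stood at 287, 331, 337 and 341 CPM with GW3965 and 256, 262, 296 and 259.9 with T0901317 at 24 h, all above the DMSO range of 142 to 158, with log2 changes of 1.12 ± 0.06 (SE, adjusted p = 5.5e-10) and 0.86 ± 0.06 (SE, adjusted p = 4.5e-08). At 48 h, where DMSO was far higher, it stood at 614, 531, 688 and 547 CPM and 456, 478, 519 and 573 CPM, all below DMSO, with log2 changes of -0.94 ± 0.09 (SE, adjusted p = 6.3e-08) and -1.17 ± 0.09 (SE, adjusted p = 4.4e-09). The libraries of 48 h lay above those of 24 h in every group. Rosiglitazone libraries ran from 144 to 156 CPM at 24 h and 1109.9 to 1409.7 at 48 h and overlapped DMSO both times, with log2 values of 0.00 (adjusted p = 0.99) and 0.12 (adjusted p = 0.3).

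NDRG1 stood at 61.9, 71.2, 85.1 and 71.2 CPM with GW3965, 40.3, 40.99, 49.2 and 50.6 with T0901317 and 38.6, 63.1, 121 and 67.9 under rosiglitazone at 48 h, all above the DMSO libraries of 28.8 to 29.7 CPM. The log2 changes were 1.30 ± 0.21 (SE, adjusted p = 5.3e-05) with GW3965 and 1.29 ± 0.21 (SE, adjusted p = 9.0e-05) with rosiglitazone, and the T0901317 value, 0.63 ± 0.21 (SE, adjusted p = 0.023), missed the threshold though its libraries did not overlap DMSO. The rosiglitazone group spread widely around its highest library, replicate 3, and without it the log2 change was 0.92 (adjusted p = 4.4e-05). At 24 h GW3965 gave 14.4, 17.1, 17.7 and 18.2 CPM, a log2 change of 0.47 ± 0.10 (SE, adjusted p = 0.005), and that call was lost without DMSO replicate 1, 2 or 4 or GW3965 replicate 2, 3 or 4 (0.40 to 0.48, adjusted p = 0.012 to 0.027).

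CA9, the cell-surface carbonic anhydrase that is a standard hypoxia marker, stood at 30.7, 33.2, 33.8 and 31.3 CPM in DMSO, 55.99, 46.8, 58.7 and 52.9 with T0901317 and 27.01, 26.8, 19.2 and 16.03 under rosiglitazone at 48 h. T0901317 libraries were all above and rosiglitazone libraries all below DMSO, with log2 changes of 0.73 ± 0.12 (SE, adjusted p = 6.6e-05) and -0.55 ± 0.12 (SE, adjusted p = 0.0016). GW3965 gave 33.01, 39.8, 38.5 and 37.5 CPM, a log2 value of 0.20 ± 0.12 (SE, adjusted p = 0.19). At 24 h rosiglitazone gave 30.2, 35.1, 36.3 and 32.5 CPM against 43.8, 48.8, 47.6 and 47.7 in DMSO, a log2 change of -0.49 ± 0.10 (SE, adjusted p = 8.8e-04).

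EGLN3, the HIF prolyl hydroxylase that is itself induced by HIF, ran parallel to PFKFB4 in direction at 48 h and with rosiglitazone at 24 h. At 48 h it stood at 5.61, 4.52, 5.86 and 6.04 CPM in DMSO, 7.42, 7.91, 8.19 and 8.36 with GW3965, 6.83, 7.61, 5.65 and 7.54 with T0901317 and 3.79, 4.02, 2.78 and 2.85 under rosiglitazone. GW3965 libraries were all above DMSO and rosiglitazone libraries all below, with log2 changes of 0.53 ± 0.13 (SE, adjusted p = 0.0019) and -0.73 ± 0.14 (SE, adjusted p = 2.7e-04), and the T0901317 value was 0.33 ± 0.13 (SE, adjusted p = 0.046). At 24 h rosiglitazone gave 5.21, 5.28, 5.94 and 6.07 CPM against 9.17, 9.59, 7.93 and 7.69 in DMSO, a log2 change of -0.62 ± 0.09 (SE, adjusted p = 5.1e-05). T0901317 at 24 h gave 6.89, 7.05, 6.50 and 7.19 CPM, all below DMSO though not called, where PFKFB4 overlapped DMSO.

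ADM, the vasodilator peptide adrenomedullin, stood at 7.17, 7.85, 8.35 and 7.46 CPM in DMSO at 48 h and at 12.6, 11.7, 16.4 and 13.4 with GW3965 and 10.4, 12.4, 12.9 and 11.8 with T0901317. Both LXR agonist groups lay above DMSO, with log2 changes of 0.81 ± 0.14 (SE, adjusted p = 1.0e-04) and 0.62 ± 0.14 (SE, adjusted p = 0.0015). With rosiglitazone it stood at 6.46, 8.88, 10.9 and 6.54 CPM, with a log2 value of 0.07 ± 0.15 (SE, adjusted p = 0.76). At 24 h ADM ran from 12.2 to 14.5 CPM with GW3965 and from 11.4 to 15.6 with T0901317. Both groups lay above the DMSO libraries of 6.87 to 11.2 CPM, and neither was called. P4HA1, a collagen prolyl hydroxylase, fell with rosiglitazone at 48 h, with a log2 change of -0.37 ± 0.08 (SE, adjusted p = 0.0016), a call lost without DMSO replicate 4 (-0.30, adjusted p = 0.01007). BNIP3, a mitophagy receptor, was expressed at 1.02 to 1.44 CPM on group average and was not called with any drug, and rows of its pseudogenes held 8.28% of the reads.

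In the pentose phosphate pathway all 3 genes rose with both LXR agonists at 48 h. Of all genes 16.1% were called higher with GW3965 and 14% with T0901317. Of all genes averaging at least 5 on the log2 CPM scale, 25.4% and 18.8% were. PGD, which yields the second NADPH of the oxidative branch, stood at 172, 174, 164 and 162 CPM in DMSO, 286, 298, 288 and 307 with GW3965 and 281, 279, 274 and 272 with T0901317. No library overlapped DMSO, and the log2 changes were 0.81 ± 0.05 (SE, adjusted p = 2.9e-10) and 0.72 ± 0.05 (SE, adjusted p = 1.4e-09). It was one of the few genes already raised at 24 h, where DMSO libraries stood at 198, 197, 185 and 187 CPM, GW3965 at 243, 251, 236 and 236 and T0901317 at 235, 226, 229.8 and 222. Again the groups did not overlap, with log2 changes of 0.33 ± 0.05 (SE, adjusted p = 2.4e-04) and 0.25 ± 0.05 (SE, adjusted p = 0.0063), although the latter call was lost without DMSO replicate 1, 2, 3 or 4 or T0901317 replicate 1, 2 or 3 (0.23 to 0.27, adjusted p = 0.012 to 0.033). With rosiglitazone at 48 h PGD gave 185, 183, 203 and 198 CPM, all above DMSO by a log2 value of 0.17 ± 0.05 (SE, adjusted p = 0.01021) that missed the threshold.

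TKT, transketolase of the non-oxidative branch, rose at 48 h with all 3 drugs, from 976 ± 65.99 CPM to 1466 ± 32.98 with GW3965, 1293 ± 79.4 with T0901317 and 1318 ± 18.3 under rosiglitazone (SD, n = 4). Its log2 changes were 0.58 ± 0.06 (SE, adjusted p = 9.4e-08), 0.41 ± 0.06 (SE, adjusted p = 9.1e-06) and 0.41 ± 0.06 (SE, adjusted p = 1.1e-05). TALDO1, transaldolase, rose at 48 h by 0.19 with GW3965, 0.21 with T0901317 and 0.33 under rosiglitazone. The GW3965 call was lost without DMSO replicate 1, 2 or 4 or GW3965 replicate 1, 3 or 4 (0.18 to 0.20, adjusted p = 0.011 to 0.02), the T0901317 call without DMSO replicate 1, 2 or 4 or T0901317 replicate 3 (0.17 to 0.20, adjusted p = 0.013 to 0.014), and the rosiglitazone call with library size scaling at 0.15 (adjusted p = 0.047).

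GW3965 and T0901317 activate the same receptors with unlike structures, a tertiary amine and a benzenesulfonamide, and were given at the same dose for the same times, so they were also set against each other over the 34 genes at each time. At 24 h only LDHA differed, higher with GW3965 by 0.28 ± 0.05 (SE, adjusted p = 0.0073) on the log2 scale, where 0.79% of all genes differed. That call was lost without any 1 of the 4 T0901317 libraries or without GW3965 replicate 2, and with library size scaling, and 2 genes were called without GW3965 replicate 1 or 4. At 48 h 8 genes differed, against 8.36% of all genes. HK2 (0.36), GPI (0.36), PFKL (0.38), ALDOA (0.41), GAPDH (0.25), ENO1 (0.24) and LDHA (0.31) were higher with GW3965, with adjusted p from 1.3e-04 for ALDOA to 0.0065 for PFKL, and CA9 was lower by -0.53 ± 0.12 (SE, adjusted p = 0.0049). With library size scaling the median of all genes moved by -0.10 and 3 of the 34 were called, 1 higher (ALDOA) and 2 lower (CA9 and PFKFB2). Leaving out single libraries gave 2 to 7 calls, with 4 or fewer without any 1 of GW3965 replicates 1 to 4 or T0901317 replicates 2 to 4.

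Among the genes that changed at least 1.5-fold with an LXR agonist at 48 h, HK2, ALDOA and CA9 were called different between the pair and the others were not. At 48 h the 95% interval of GW3965 against T0901317 on the log2 scale ran from -0.17 to 0.23 for ENO2, from -0.29 to 0.21 for ALDOC, from -0.45 to 0.36 for PFKFB4, from 0.04 to 0.41 for VEGFA, from -0.10 to 0.47 for ADM and from -0.02 to 0.19 for PGD. NDRG1 had the largest difference without a call, 0.67 ± 0.21 (SE, adjusted p = 0.031), with an interval from 0.24 to 1.11.

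Rosiglitazone was set against GW3965 in the same way. At 24 h 10 of the 34 genes differed, 2 higher (HK2 and PGAM1) and 8 lower with rosiglitazone, where 10.7% of all genes differed; DESeq2 called 5 and 8. At 48 h 20 differed, 7 higher and 13 lower, against 45% of all genes. Of all genes averaging at least 5 on the log2 CPM scale, 41% were higher and 24.5% lower with rosiglitazone at 48 h. Of the 25 carbohydrate and hypoxia genes at that level, 24% were higher and 28% lower. At 24 h the shares were 10.2% and 6.93% of such genes, and 8% and 8% of the 25. The largest differences at 48 h were PFKFB4, lower by -2.42 ± 0.23 (SE, adjusted p = 3.6e-08), and HK2, higher by 1.75 ± 0.08 (SE, adjusted p = 2.0e-12). ENO2 (-1.45), EGLN3 (-1.26) and ALDOC (-1.17) were lower with rosiglitazone, and VEGFA (1.06) and PFKP (0.76) were higher. ALDOA (-0.11 to 0.13), GPI (-0.11 to 0.23) and PGK1 (-0.15 to 0.04), given here as 95% intervals, were among the 14 that were not called. With library size scaling the median of all genes moved by -0.16 and the split became 3 higher and 17 lower. Rosiglitazone was not tested directly against T0901317.

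**Figure D4:**
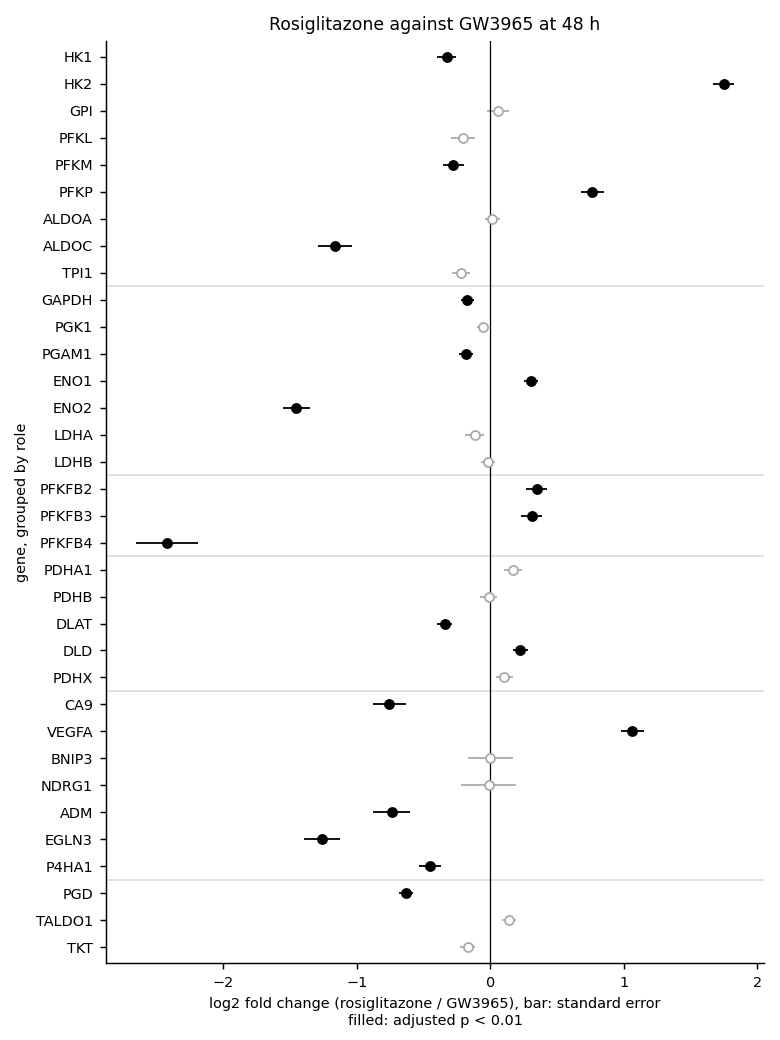
Log2 fold change between rosiglitazone and GW3965 at 48 h for the 34 tested genes (4 libraries each), with the standard error as a bar; filled points have an adjusted p under 0.01 and lines part the roles. HK2 (1.75) and VEGFA (1.06) lie farthest right and PFKFB4 (-2.42) farthest left, while most of the other glycolytic genes lie within 0.5 of 0.

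Whether a drug's difference from DMSO at 48 h departed from that at 24 h was tested as an interaction over all 32 libraries. For GW3965 it did for 16 of the 34 genes, 13 toward higher and 3 toward lower values, where 21.6% of all genes did. For T0901317 it did for 13, 11 and 2, against 17.4% of all genes, and for 17 with library size scaling, which moved the median of all genes by 0.11. VEGFA had the largest of these with either agonist, with log2 values of -2.06 ± 0.11 (SE, adjusted p = 2.4e-15) for GW3965 and -2.02 ± 0.11 (SE, adjusted p = 3.3e-15) for T0901317. The values were 1.34 and 1.04 for PFKFB4, -1.03 and -1.20 for HK2 and 1.04 and 0.97 for ENO2. For rosiglitazone 4 genes did, all toward higher values, against 2.45% of all genes. They were NDRG1 (1.55), PFKP (0.58), ENO1 (0.36) and ALDOA (0.43). Of all genes averaging at least 5 on the log2 CPM scale, 17% moved higher and 23.8% lower for GW3965, and 11% and 21.8% for T0901317. Of the 26 carbohydrate and hypoxia genes at that level, 34.6% and 7.69% did for GW3965, and 26.9% and 7.69% for T0901317. For rosiglitazone the shares were 3.29% and 1.64% of such genes, and 15.4% and 0% of the 26.

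Other genes of the same pathways were read from lists beside the 35. Of 20 tested further enzymes of glycolysis and gluconeogenesis, 9 were higher and 3 lower with GW3965 at 48 h, 8 and 4 with T0901317, and 6 and 2 under rosiglitazone. Over all genes 16.1% were higher and 17.5% lower with GW3965 at 48 h, 14% and 16.1% with T0901317, and 12.3% and 13.1% under rosiglitazone. HKDC1, a further hexokinase, fell at 48 h with GW3965 (-1.10) and T0901317 (-1.30), as HK2 did. PCK2, the mitochondrial phosphoenolpyruvate carboxykinase, rose with both at 24 h (1.14 and 1.22) and fell with both at 48 h (-0.93 and -1.08). TIGAR, a fructose bisphosphatase that diverts sugar to the pentose phosphate pathway, fell at 48 h (-0.99 and -0.92), and was not called with rosiglitazone.

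Among 6 tested genes of glucose and lactate transport, SLC2A1, the glucose carrier GLUT1, fell with T0901317 at 48 h, from 897 ± 47.3 to 517 ± 60.4 CPM (SD, n = 4), a log2 change of -0.79 ± 0.07 (SE, adjusted p = 3.6e-08), and its GW3965 value was -0.23 (adjusted p = 0.01047). Of 7 other tested pentose phosphate enzymes, 2 were higher and 1 lower with GW3965, 2 were higher with T0901317 and 1 under rosiglitazone, all at 48 h. The shares of all genes were 16.1% higher and 17.5% lower with GW3965, 14% and 16.1% with T0901317, and 12.3% and 13.1% under rosiglitazone. Here 1 of 7 is near the background.

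Of 7 tested genes of oxygen sensing, 0 were higher and 4 lower with GW3965 at 48 h, 0 and 3 with T0901317, and 0 and 1 under rosiglitazone, where 17.5%, 16.1% and 13.1% of all genes were lower, so that 1 of 7 is near the background. EPAS1, the HIF2 alpha subunit, had log2 values of -0.54, -0.55 and 0.46 at 48 h, and HIF1A had -0.28, -0.04 and -0.12. These are transcript levels, and HIF is chiefly controlled through protein stability, which was not measured here.

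Of 13 further hypoxia-inducible genes tested, 2 were higher and 2 lower with GW3965 at 48 h, 1 and 3 with T0901317, and 3 and 3 under rosiglitazone. With GW3965, 2 of 13 is near the 16.1% and 17.5% of all genes, and with the other drugs the shares of all genes were 14% and 16.1% and 12.3% and 13.1%. DDIT4, an inhibitor of mTORC1 signalling, followed VEGFA, with log2 changes of 2.08 ± 0.12 (SE, adjusted p = 3.5e-10) and 1.90 ± 0.12 (SE, adjusted p = 2.2e-09) with the LXR agonists at 24 h and of -1.05 ± 0.08 (SE, adjusted p = 4.5e-09) and -1.10 ± 0.08 (SE, adjusted p = 2.8e-09) at 48 h. ANGPTL4, an inhibitor of lipoprotein lipase that is also a direct PPARG target, had log2 changes of 5.02 ± 0.27 (SE, adjusted p = 1.1e-10) and 6.75 ± 0.31 (SE, adjusted p = 4.2e-12) with rosiglitazone.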

How the data were processed

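RNA-seq of HT29 cells was read from 2 tables of gene counts that the authors deposited, 1 for each time point, with 16 libraries each. The values are raw counts per gene in whole numbers, and all columns were matched to a sample label. Per the labels, poly(A) RNA was made into paired-end libraries with a transposase kit, and the submitters' processing notes name TopHat, Cufflinks and the genome build hg19, with no versions. The counting program and its use of strand were not given in the sources used here, so reads of a gene and an overlapping antisense gene cannot be told apart, and reads of pseudogene copies may be split. The chromatin assays of the series were not used here.

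Counts were analysed in R 4.3.3 with edgeR 4.0.16 and limma 3.58.1. Genes were kept by filterByExpr, scaled by TMM and fitted by glmQLFit with 1 mean per group, over the 16 libraries of a time point for drug comparisons and over all 32 for comparisons across times. Standard errors were derived from the log2 fold change and the F statistic, and 95% intervals from the total degrees of freedom of the test (prior plus residual). P-values were adjusted by the method of Benjamini and Hochberg over all genes tested. A gene was called at an adjusted p under 0.01, and calls of at least 1.5-fold were counted beside it. The study used the same adjusted p with a change of at least 2-fold, and 1.5-fold as its lower cutoff. Calls without a fold threshold are therefore wider than those of the study. CPM values for single libraries use TMM factors over all 32. The biological coefficient of variation was 0.0981 at 24 h and 0.101 at 48 h, and no 2 replicates agreed within sampling noise.

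All 35 genes are named. Values per library are printed for those called with at least 1.5-fold in a drug comparison, and for other pathway lists at most the 3 largest such changes among genes that average 1 or more on the log2 CPM scale. Some genes that this rule names are not reported here. The genes, lists and thresholds were chosen with earlier results of these data known. The replicate numbers were tested as pairs and did not pair the libraries. Alternatives were DESeq2 1.42.0, its size factors in edgeR, library size scaling, other filters, other thresholds, a replicate block, fits of 2 groups and leaving out each library.

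On simulated counts for GW3965 against DMSO at 48 h over 22029 genes tested, with 100 genes changed 1.5-fold and 100 changed 2-fold, edgeR found 78 and 97 of these and called 1 unchanged gene. The interaction test of the GW3965 response, over 22461 genes, found fewer, 32 and 84 of these, and called 2 unchanged genes. Promoter sequences were taken from RefSeq (GRCh38.p14), and figures were drawn with matplotlib 3.10.9 in Python 3.11.15.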

Additional observations from a re-analysis of the deposited data

Results flagged for a closer look

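In 280 sets of 4 libraries (35 genes in 8 groups), the library farthest from the others was measured by its gap to the nearest one as a share of the group's whole range in CPM, and the share passed Dixon's 95% critical value for 4 samples in 15 sets. Chance alone flags about 1 set in 20.

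Gaps that passed were spread over 12 genes and all 8 groups. HK1 in rosiglitazone 24 h had replicate 3 lowest at 142 CPM against 146 to 147 in the other 3, a share of 0.858. In GW3965 48 h, the highest HK2 value was 35.9 CPM (replicate 4, the others 32.7 to 33.2), a share of 0.857. For GPI the lowest library of GW3965 48 h was replicate 1, with 854 CPM beside 911 to 921 and a share of 0.850. PFKL in DMSO 48 h had replicate 3 lowest at 213 CPM against 243 to 244 in the other 3, a share of 0.949. In rosiglitazone 48 h, the lowest PFKM value was 54.00 CPM (replicate 3, the others 71.9 to 74.6), a share of 0.873. For ALDOA the lowest library of DMSO 24 h was replicate 3, with 1359 CPM beside 1531 to 1545 and a share of 0.927. ALDOA in T0901317 48 h had replicate 1 highest at 1187 CPM against 1031 to 1055 in the other 3, a share of 0.848. In rosiglitazone 48 h, the highest ENO2 value was 11.9 CPM (replicate 2, the others 9.72 to 10.04), a share of 0.853. For LDHA the lowest library of T0901317 48 h was replicate 4, with 340.4 CPM beside 388 to 392 and a share of 0.910. LDHB in DMSO 48 h had replicate 3 highest at 293 CPM against 274 to 276 in the other 3, a share of 0.931. In GW3965 24 h, the highest DLD value was 79.5 CPM (replicate 1, the others 64.98 to 66.7), a share of 0.882. For DLD the highest library of rosiglitazone 48 h was replicate 4, with 91.1 CPM beside 80.5 to 82.3 and a share of 0.832. VEGFA in T0901317 24 h had replicate 3 highest at 296 CPM against 256 to 262 in the other 3, a share of 0.849. In DMSO 48 h, the highest TALDO1 value was 189 CPM (replicate 3, the others 176 to 177), a share of 0.890. For TALDO1 the highest library of T0901317 48 h was replicate 3, with 225 CPM beside 200.2 to 203 and a share of 0.879.

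The GW3965 response on the log2 scale was higher at 48 h than at 24 h, by the interaction test of edgeR over 32 libraries at an adjusted p under 0.01, for PFKFB4 (1.34), ENO2 (1.04), ALDOC (0.76), EGLN3 (0.68), GPI (0.59), PFKL (0.59), ALDOA (0.59), PGD (0.48), TKT (0.43), GAPDH (0.40), LDHA (0.38), TPI1 (0.35), PGAM1 (0.29). It was lower at 48 h for VEGFA (-2.06), HK2 (-1.03), PFKFB2 (-0.37).

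The T0901317 response on the log2 scale was higher at 48 h than at 24 h, by the interaction test of edgeR over 32 libraries at an adjusted p under 0.01, for PFKFB4 (1.04), ENO2 (0.97), ALDOC (0.91), EGLN3 (0.64), CA9 (0.56), PGD (0.47), DLAT (0.36), LDHA (0.35), TPI1 (0.35), TKT (0.30), PGAM1 (0.29). It was lower at 48 h for VEGFA (-2.02), HK2 (-1.20).

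The rosiglitazone response on the log2 scale was higher at 48 h than at 24 h, by the interaction test of edgeR over 32 libraries at an adjusted p under 0.01, for NDRG1 (1.55), PFKP (0.58), ALDOA (0.43), ENO1 (0.36).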

How the results depend on the processing

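None of the 14 comparisons or the single genes named changed direction as a called result under any alternative run. For the counts of calls in the 14 comparisons, 206 values were rated the same and 66 as moved. For single genes, 943 values kept their side of the threshold and 92 lost their call. At an adjusted p under 0.05 the calls among the 34 genes rose to 3 for GW3965 directly against T0901317 at 24 h and to 7 for the change in rosiglitazone response between the times. With the further demand of at least 1.5-fold, the calls at 24 h were 1 with GW3965, 1 with T0901317 and 3 with rosiglitazone, and at 48 h 9, 8 and 6. Direct comparisons then left 0 calls between GW3965 and T0901317 at either time, and between rosiglitazone and GW3965 they left 4 at the earlier and 10 at the later time. The change in response gave 9 for GW3965, 6 for T0901317 and 1 for rosiglitazone, and DMSO over time gave 12. At 2-fold the drug comparisons numbered 1, 0 and 0 calls after 24 h and 3, 5 and 2 after 48 h, the direct ones 0 and 0 for GW3965 against T0901317 and 1 and 6 for rosiglitazone against GW3965, the change in response 4, 3 and 1, and DMSO over time 5. No share of all genes is given for the counts at an adjusted p under 0.05 or at 2-fold. None is given either for 1.5-fold outside the drug comparisons, so these counts have no background beside them.

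Library size scaling gave 1 call for T0901317 at 24 h, 7 for rosiglitazone at 24 h, where the median of all genes moved by -0.11, and 3 for GW3965 against T0901317 at 48 h. Without a filter on low counts, with a replicate block and with only the 2 groups compared, T0901317 at 24 h kept 1 call. The replicate block and the fit of 2 groups gave 0 calls for GW3965 against T0901317 at 24 h, where in the fit reported 5 genes were higher and 2 lower at an unadjusted p under 0.05 by edgeR. Here too no share of all genes is given at the unadjusted level. DESeq2 gave 3 calls for that comparison and 7 for the change in rosiglitazone response. The replicate numbers are shared by the groups without pairing them, since 7 of 24 same-numbered pairs at 24 h and 11 of 24 at 48 h had a correlation of deviations over 0.1, and 3 of 16 and 4 of 16 libraries correlated best with their own number. The replicate block moved no other count by more than 1.5 times.

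Leaving out single libraries gave 1 to 2 calls for T0901317 at 24 h, 6 to 10 for rosiglitazone at 24 h, 0 to 2 for GW3965 against T0901317 at 24 h and 2 to 7 at 48 h. In the other comparisons the counts stayed within 1.5 times of those reported. Depth limits BNIP3, PFKFB4 and PFKFB1 most, which have the fewest counts.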
